A study of Arabidopsis thaliana with 21 samples.

Results

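The camta1/2 double mutant was compared with the wild type (WT) at 22 °C, on 3 arrays each, 6 of the 21 arrays of the series. CAMTA3 was the one intact gene of the 3 mutated in the series, and the comparison asks how far the transcripts of such plants stay at the level of WT. Every probe set on the array other than the 64 controls was used, which made 22746. The difference between the genotypes was small. At an adjusted p under 0.05 in limma, 37 probe sets were called, which is 0.163% of those tested, with 23 higher (0.101%) and 14 lower (0.0615%) in camta1/2. The named genes that rose include the immune receptor-associated kinase gene BIK1, 2 further genes of the receptor kinase class and the methionine sulfoxide reductase gene MSRB9. Those that fell include a pectin methylesterase gene and a glutaredoxin gene.

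CAMTA proteins are calmodulin-binding transcription activators, which bind DNA with a CGCG core and link calcium signals to transcription. CAMTA3, also called SR1, is known in Arabidopsis for holding down salicylic acid-dependent immunity in warm-grown plants and for helping cold-regulated genes to be induced. CAMTA1 and CAMTA2 are its closest relatives and are known to overlap with it in function.

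The plants were Arabidopsis thaliana of the Col-0 ecotype, grown for 3 weeks on soil at 22 °C with a 12 h photoperiod, and RNA came from the whole aerial part. Beside camta1/2, the camta1/3, camta2/3 and camta1/2/3 mutants and WT were sampled at 22 °C, and camta1/2/3 and WT also after 24 h at 4 °C, with 3 biological replicates in each of the 7 groups. The labels give the mutated genes but neither the alleles nor the number of lines or of plants behind an array. Expression is given as the deposited log2 level, which ran from 2.17 to 14.27 over the table and came without detection calls, so that a difference from a group near the lower end is only a lower bound.

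The 6 arrays were alike in quality. Their medians lay between 4.94 and 4.99, and each correlated with the other arrays of its group at 0.988 to 0.992 on average. The gap between the 3′ and 5′ actin control probe sets, a sign of RNA integrity, was 2.09 ± 0.05 in camta1/2 and 2.23 ± 0.21 in WT (log2, SD, n = 3 each). It was 2.48 ± 0.26 in camta1/3, 2.62 ± 0.16 in camta2/3 and 2.90 ± 0.13 in camta1/2/3 (n = 3 each). With this gap as a covariate, 35 probe sets were called between camta1/2 and WT in place of 37, with 32 in both sets. Between camta1/2 and camta2/3 there were 200 in place of 324, and between camta1/2 and camta1/2/3 there were 2443 in place of 3533. Genes of the photosynthetic leaf stood high in both genotypes: the Rubisco activase gene RCA averaged 13.55 in camta1/2 and 13.66 in WT, and the antenna gene LHCB4.1 averaged 12.68 in camta1/2 and 12.62 in WT. Of the markers of other organs that were measured, the root gene EXPA7 lay near the lower end at 2.17 in camta1/2, as did the anther gene AT5G07230 at 2.39 in camta1/2 and 2.48 in WT. The root gene PYK10 averaged 7.19 in camta1/2 and 7.97 in WT, without passing the test.

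How little camta1/2 moved shows in the size of all differences. The standard deviation of the log2 differences over all probe sets was 0.26 for camta1/2 minus WT, and 95% of the differences were under 0.50 in size. The same standard deviation was 0.33 for camta1/3, 0.47 for camta2/3 and 0.65 for camta1/2/3, each against the same WT arrays. With or without a call, 233 probe sets differed at least 2-fold in camta1/2, against 453 in camta1/3, 1045 in camta2/3 and 2199 in camta1/2/3. The calls ran in the same order, with 502 in camta1/3 (2.21%), 2301 in camta2/3 (10.1%) and 5342 in camta1/2/3 (23.5%). The 233 were lopsided, since 191 were higher (0.84%) and 42 lower (0.185%) in camta1/2.

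The count of 37 calls rests on few arrays, and single arrays moved it widely. Without WT replicate 1 there were 279 calls, without camta1/2 replicate 3 there were 141, without WT replicate 2 there were 22 and without camta1/2 replicate 2 there were 7. Without WT replicate 3 there were 36 and without camta1/2 replicate 1 there were 37, but only 12 and 14 of these were among the 37 of all arrays. The balance of directions moved as well, with 170 higher and 109 lower without WT replicate 1, 6 higher and 16 lower without WT replicate 2, and 6 higher and 30 lower without WT replicate 3. In a fit of the 6 arrays alone there were 0 calls in limma, with 1491 probe sets at an unadjusted p under 0.05, against 1794 in the fit of all 21 arrays. WT replicate 1 and camta1/2 replicate 3 lay closest to the other genotype in the genes that were higher. WT replicate 1 was the highest WT array for 17 of the 23 called rises and for 162 of the 191 probe sets that were at least 2-fold higher, and camta1/2 replicate 3 was the lowest camta1/2 array for 21 and 149 of them. Over all probe sets, WT replicate 1 was the highest WT array for 5812 of 22746.

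**Figure D1:**
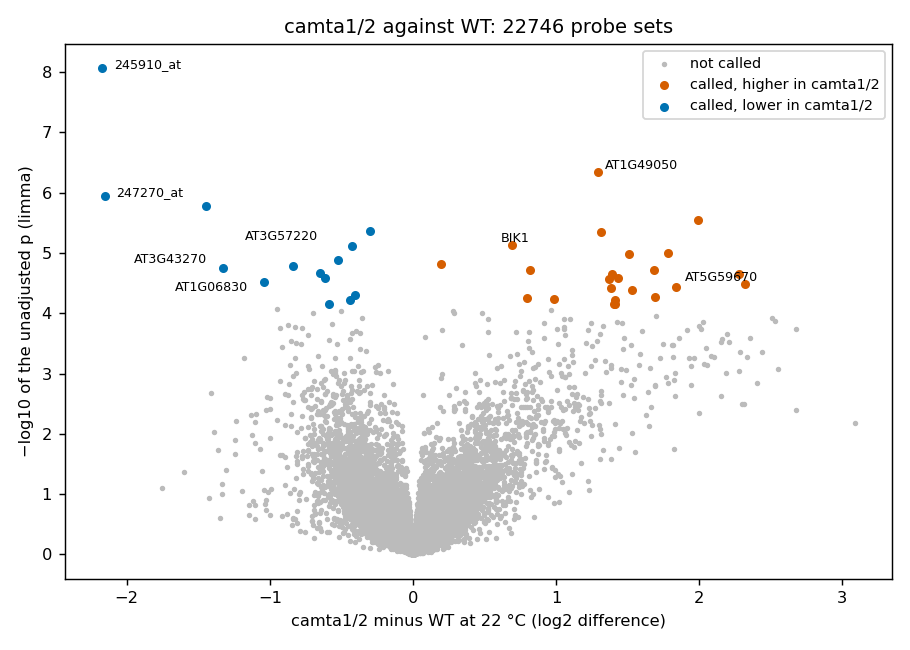
Difference of camta1/2 minus WT at 22 °C (log2, horizontal axis) against the unadjusted p from limma (as minus log10, vertical axis) for 22746 probe sets. Orange points are the 23 probe sets called higher and blue points the 14 called lower in camta1/2. The widest differences of probe sets not called lie to the right, where 191 probe sets were at least 2-fold higher, against 42 that were at least 2-fold lower.

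Of the 37 called probe sets, 18 are listed with 1 gene and 19 have no gene name here. All 37 had camta1/2 and WT arrays that did not overlap, as did 9.09% of all probe sets. In bulk tissue, fewer cells of a type and less RNA per cell cannot be told apart. Of the 4 calls with an adjusted p under 0.01, 3 were probe sets that followed the genotype of a mutated gene, and they kept their calls whichever of the 6 arrays was left out.

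Probe set 245910_at, which has no gene name here, had levels of 5.53, 5.80 and 6.21 in camta1/2, against 7.88, 7.98 and 8.19 in WT. It was lower by a log2 difference of -2.17 ± 0.19 (SE, adjusted p = 0.000196), the smallest adjusted p of the comparison. Its difference from WT was -2.34 in camta1/3 and -3.01 in camta1/2/3, but -0.30 in camta2/3, the one mutant with an intact CAMTA1 (adjusted p = 0.407 there). The probe set was higher in camta1/2 than in camta1/2/3 by 0.84 (adjusted p = 0.00688 in limma). Over all 21 arrays, the 12 of camta1 mutants lay between 4.30 and 6.21 and the 9 others between 7.10 and 8.19. Only 1 further probe set parted these 12 and 9 arrays without overlap, 250604_at, also unnamed. It read 4.35, 4.35 and 4.34 in camta1/2, against 5.55, 6.16 and 5.67 in WT (-1.45 ± 0.19, adjusted p = 0.00928), while in camta2/3 it was higher than in WT by 0.85 (adjusted p = 0.00935).

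Probe set 247270_at followed CAMTA2 in the same way. It had 3.53, 2.93 and 3.34 in camta1/2, against 5.55, 5.11 and 5.60 in WT, a difference of -2.15 ± 0.27 (SE, adjusted p = 0.00861). The difference from WT was -2.20 in camta2/3 and -2.02 in camta1/2/3, but -0.01 in camta1/3, where CAMTA2 is intact. It was the only probe set that parted all arrays by CAMTA2, with mutants at 2.74 to 3.82 and the others at 4.98 to 6.03. By comparison, 136 probe sets parted the arrays by CAMTA3, 115 of them higher in the mutants. The mutated CAMTA genes themselves have no probe set named here, so these patterns are given by genotype only. Of the genes that lie within 10 loci of CAMTA1 and CAMTA2 on either side, 11 and 9 were measured. None of them was called in limma, where 0.163% of all probe sets were.

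AT3G57220, which encodes a glycosyltransferase of family 4, was also lower wherever CAMTA2 was mutated at 22 °C. It read 6.13, 5.97 and 6.04 in camta1/2, against 6.42, 6.45 and 6.55 in WT (-0.43 ± 0.06, adjusted p = 0.0193). Its means were 6.04 in camta2/3 and 5.92 in camta1/2/3, but 6.52 in camta1/3. After 24 h at 4 °C, where WT averaged 6.06, camta1/2/3 minus WT was -0.12 and did not pass the test (adjusted p = 0.219). With probe sets under a mean level of 4 left out, this gene lost its call.

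**Figure D2:**
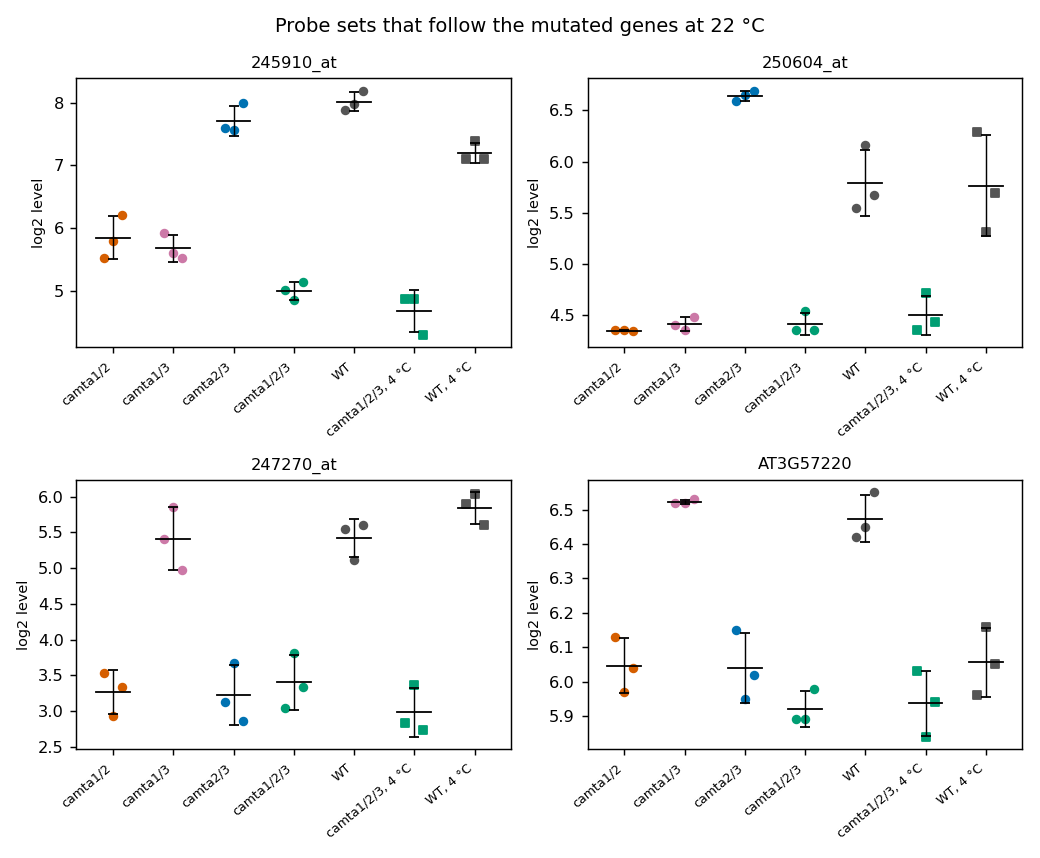
Log2 level (vertical axis) of 4 probe sets on the 3 arrays of each group, with camta1/2 at the left, the other mutants and WT at 22 °C after it (circles) and camta1/2/3 and WT after 24 h at 4 °C at the right (squares). Bars are the mean and SD. 245910_at and 250604_at were low in every camta1 mutant, 247270_at in every camta2 mutant, and AT3G57220 in the camta2 mutants at 22 °C.

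Among the rises, 9 of the 23 called probe sets have 1 gene and are named here. BIK1 encodes a receptor-like cytoplasmic kinase that passes on signals from pattern recognition receptors. Its levels were 6.02, 6.07 and 5.94 in camta1/2, against 5.45, 5.15 and 5.35 in WT, a rise of 0.69 ± 0.10 (log2, SE, 1.62-fold, adjusted p = 0.0193). The camta1/2 arrays were tightly grouped, and the lowest stood well over the highest WT array. AT5G59670, a leucine-rich repeat receptor-like kinase gene, had 7.85, 7.72 and 7.64 in camta1/2, against 6.71, 5.76 and 5.22 in WT. It rose 3.58-fold, the largest rise of a called named gene (log2 1.84 ± 0.32, adjusted p = 0.0318), with WT arrays that spread much more than those of camta1/2. AT4G18250, which encodes a receptor kinase with a thaumatin-like domain, had 5.45, 5.54 and 4.98 in camta1/2, against 3.67, 4.05 and 3.67 in WT (adjusted p = 0.0336). Since 3.67 was the lowest level of this probe set on any array, its rise of 2.88-fold is a lower bound.

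AT1G49050, an aspartyl protease gene, was the named rise with the smallest adjusted p. It had 7.22, 7.60 and 7.10 in camta1/2, against 5.93, 5.97 and 6.14 in WT, and rose by a log2 difference of 1.29 ± 0.15 (SE, adjusted p = 0.00515). It was the one named rise that kept its call whichever of the 6 arrays was left out. MSRB9, whose product repairs oxidized methionine, had 7.30, 7.66 and 6.94 in camta1/2, against 6.35, 5.75 and 5.56 in WT (1.41 ± 0.26, adjusted p = 0.0436). AT2G32160, a methyltransferase gene, had 8.77, 8.80 and 7.87 in camta1/2, against 7.38, 6.84 and 7.11 in WT (1.37 ± 0.23, adjusted p = 0.0265). In these genes no camta1/2 array came down to the WT arrays, though replicate 3 came nearest.

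The other named rises were AT2G15042, a leucine-rich repeat gene (log2 1.41, adjusted p = 0.0407), AT1G76960, whose role is not given here (1.38, adjusted p = 0.0322), and AT1G13750, a purple acid phosphatase gene (0.98, adjusted p = 0.0407). Except for AT1G49050 and BIK1, each of the 9 lost its call in 4 of the 6 fits that left out 1 array of the comparison, and each kept its direction. These 7 also lost their calls in the fit of the 15 arrays at 22 °C. BIK1 lost its call without camta1/2 replicate 2 or WT replicate 2, and its adjusted p reached 0.0931 over the 6 fits. The largest of all called rises belong to probe sets without a gene name, 265837_at with 10.37, 10.19 and 9.43 in camta1/2, against 8.85, 6.90 and 7.29 in WT (4.98-fold), and 266746_s_at (4.85-fold). Of the called rises 18 were at least 2-fold, and 1 lay below 4 in both genotypes, 254625_at, with 2.45, 2.39 and 2.30 in camta1/2, against 2.19, 2.19 and 2.18 in WT. This probe set averaged 2.21 in camta1/3, 2.19 in camta2/3 and 2.19 in camta1/2/3, near its WT level.

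3 further genes came next by unadjusted p and did not pass. LPR2, a multicopper oxidase gene of the root response to low phosphate, averaged 8.58 ± 0.30 in camta1/2 and 7.62 ± 0.35 in WT (adjusted p = 0.0509). AT4G08610 lay near the lower end, at 2.54 ± 0.10 in camta1/2 and 2.26 ± 0.01 in WT. It was higher in camta1/2 than in camta1/2/3 by 0.29 (adjusted p = 0.00178). AT3G17120 had 4.60, 4.64 and 4.63 in camta1/2, against 4.13, 4.07 and 4.22 in WT (adjusted p = 0.0518). In AT3G17120 camta1/2 was higher than camta2/3 by 0.69 (adjusted p = 0.00191) and higher than camta1/2/3 by 1.06 (adjusted p = 4.16e-06). There camta1/2/3 went the other way from camta1/2, lower than WT by a log2 difference of -0.58 (adjusted p = 0.000289).

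**Figure D3:**
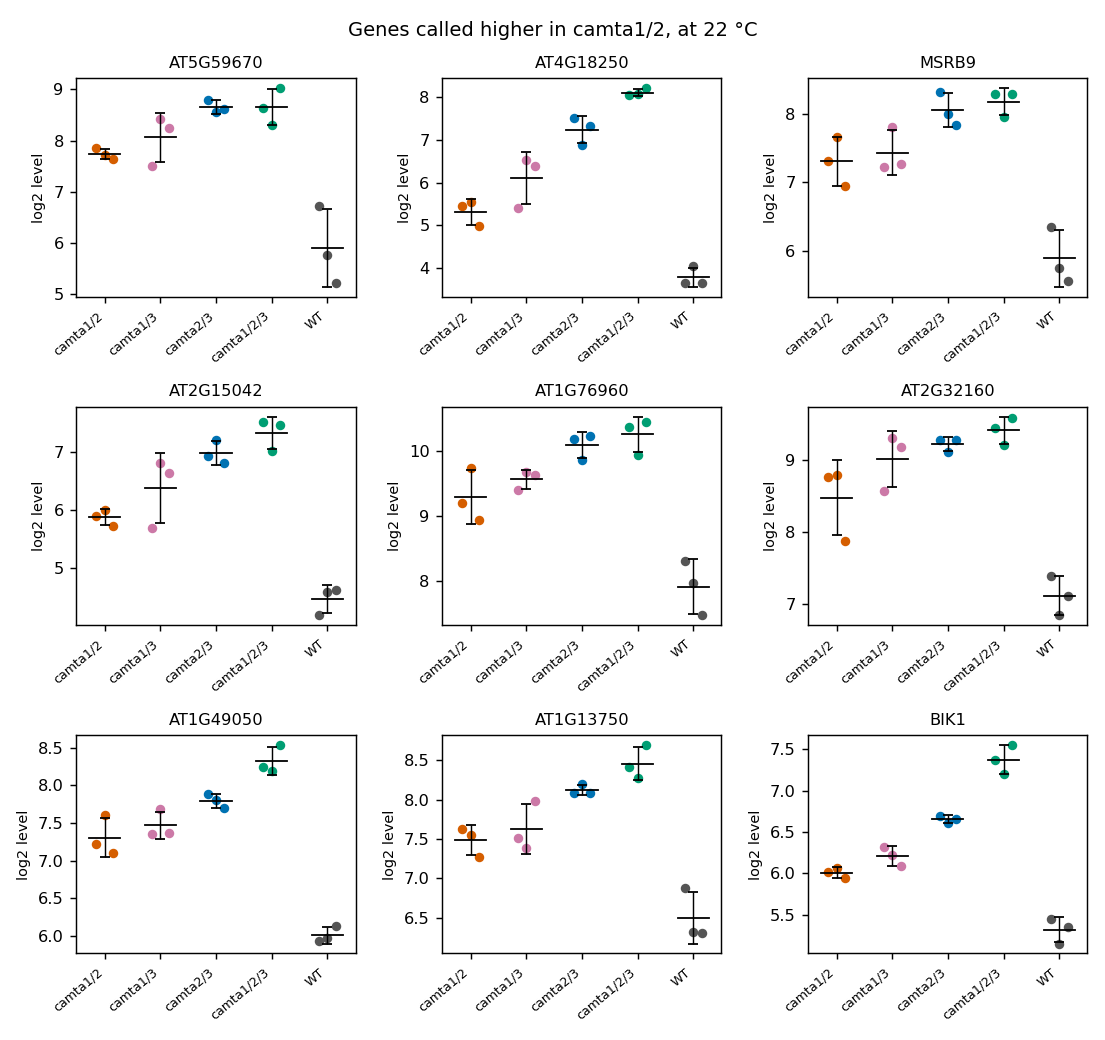
Log2 level (vertical axis) on the 3 arrays of each group at 22 °C for the 9 named genes called higher in camta1/2, with camta1/2 at the left and WT at the right. Bars are the mean and SD. BIK1 averaged 6.01 in camta1/2, 6.21 in camta1/3, 6.66 in camta2/3, 7.37 in camta1/2/3 and 5.32 in WT, and camta1/2 has the lowest mean of the mutants in each panel, although no difference between camta1/2 and camta1/3 passed the test.

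The falls were smaller than the rises. The median size of the log2 difference was 0.63 over the 14 called falls and 1.41 over the 23 called rises. AT3G43270, a pectin methylesterase gene of the cell wall, had 5.35, 5.31 and 5.38 in camta1/2, against 6.78, 6.86 and 6.39 in WT, and fell 2.51-fold (log2 -1.33 ± 0.21, adjusted p = 0.0250). AT1G06830, which encodes a glutaredoxin, had 7.35, 7.53 and 7.25 in camta1/2, against 8.20, 8.25 and 8.81 in WT, and fell 2.06-fold (-1.04 ± 0.18, adjusted p = 0.0282). In both genes the camta1/2 arrays were closer to each other than those of WT.

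The remaining named falls lay lower on the scale. AT1G10380 averaged 3.89 ± 0.13 in camta1/2 and 4.54 ± 0.09 in WT (adjusted p = 0.0250), and the methyltransferase gene AT2G45750 averaged 3.44 ± 0.08 in camta1/2 and 4.02 ± 0.19 in WT (adjusted p = 0.0436). AT1G64450 averaged 3.82 ± 0.16 in camta1/2 and 4.26 ± 0.06 in WT (adjusted p = 0.0407), a call kept in only 3 of 10 alternative fits and lost, among others, with median centring, a trended variance or the actin covariate. 3 genes lay below 4 in both genotypes: AT3G25290, of the auxin-responsive family, at 2.82 on each camta1/2 array, against 3.19, 3.37 and 3.47 in WT, AT2G15630, of the pentatricopeptide repeat class, and AT3G11000. Their differences of -0.52, -0.41 and -0.30 are lower bounds, since camta1/2 was near the lower end of the scale.

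Among the next by unadjusted p, none of which passed, were the FKBP-type isomerase gene AT4G19830, with 6.29, 5.86 and 5.83 in camta1/2, against 6.79, 6.87 and 7.10 in WT (adjusted p = 0.0605), and AT5G15240, an amino acid transporter gene, with 2.68 ± 0.10 in camta1/2 and 3.46 ± 0.22 in WT. The third was AT1G22330, an RNA recognition motif gene, with 3.92 ± 0.09 in camta1/2 and 4.32 ± 0.12 in WT, whose other probe set gave a difference of -0.27 (adjusted p = 1).

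**Figure D4:**
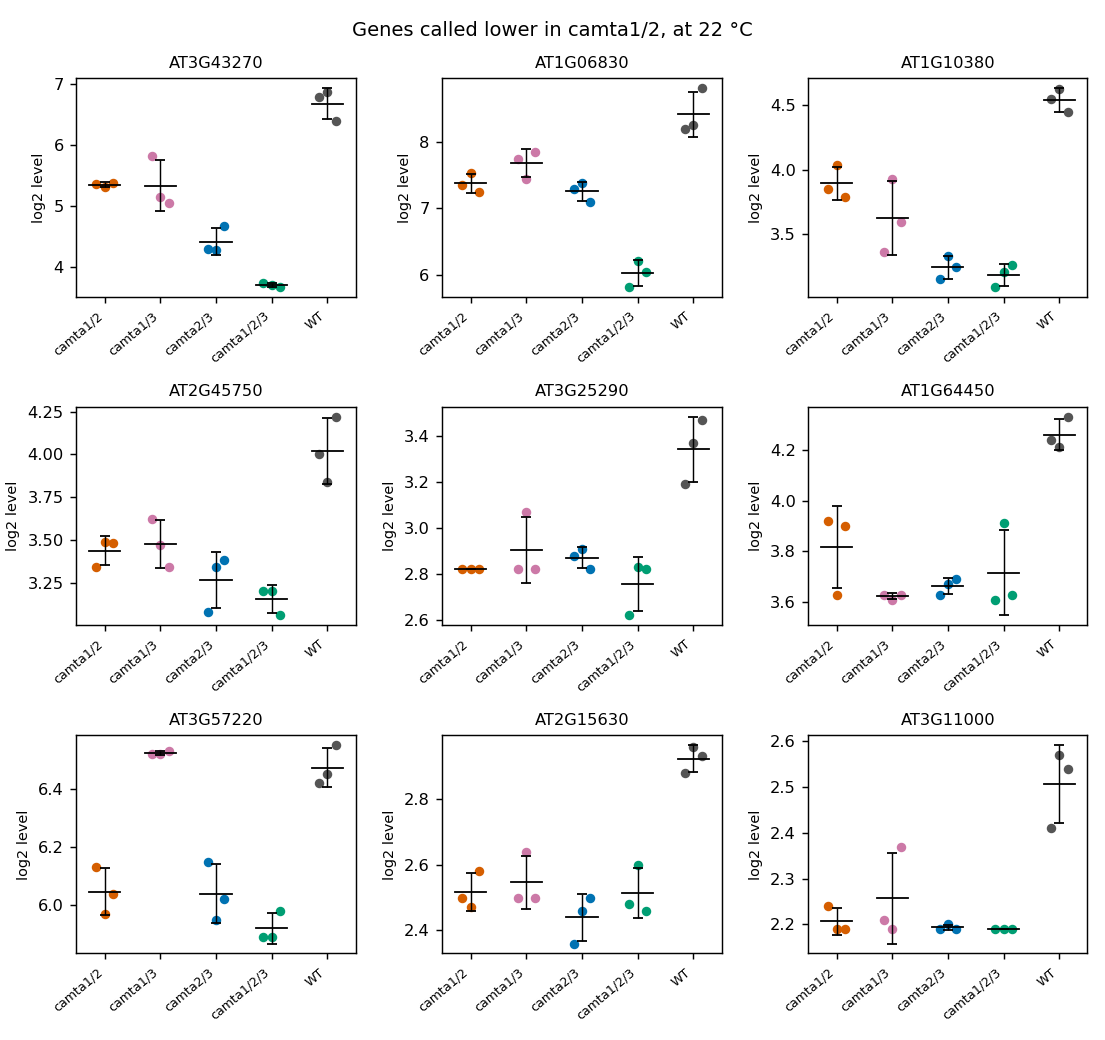
Log2 level (vertical axis) on the 3 arrays of each group at 22 °C for the 9 named genes called lower in camta1/2, with camta1/2 at the left and WT at the right. Bars are the mean and SD. AT3G43270 averaged 5.35 in camta1/2, 5.33 in camta1/3, 4.41 in camta2/3, 3.70 in camta1/2/3 and 6.68 in WT.

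The other mutants were set against camta1/2 directly, a test of the difference between mutants in which WT takes no part. Only 2 probe sets were called between camta1/2 and camta1/3 (0.00879%), both lower in camta1/2, with 911 at an unadjusted p under 0.05. They were 247270_at and AT3G57220, the 2 described above as low in camta2 mutants. Without camta1/2 replicate 1 there were 10 calls, without camta1/2 replicate 3 there were 8, and without camta1/3 replicate 1 there were 0. Between camta1/2 and camta2/3, 324 probe sets were called (1.42%), 162 higher and 162 lower in camta1/2, a count that was 127 to 149 without any of 5 of the 6 arrays and 370 without camta1/2 replicate 2. Between camta1/2 and camta1/2/3, 3533 were called (15.5%), 1606 higher and 1927 lower in camta1/2.

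The same tests place the members of the list. Of the 23 called rises, 0 were called in either direction between camta1/2 and camta1/3. Between camta1/2 and camta2/3, 6 were called lower in camta1/2 and 1 higher, where 0.712% of all probe sets were called in each direction. Between camta1/2 and camta1/2/3, 18 were called lower in camta1/2 (8.47% of all probe sets) and 1 higher (7.06% of all). These comparisons use the camta1/2 arrays that also chose the list. AT4G18250 shows the steps: it averaged 5.32 in camta1/2, 6.10 in camta1/3, 7.23 in camta2/3, 8.09 in camta1/2/3 and 3.80 in WT. The difference of camta1/2 from camta1/3 did not pass after adjustment over all probe sets (-0.78 ± 0.27, SE, adjusted p = 1). In the same test camta1/2 was lower than camta2/3 by a log2 difference of -1.90 (adjusted p = 0.00268) and lower than camta1/2/3 by -2.77 (adjusted p = 1.13e-05). For BIK1, camta1/2 was lower than camta2/3 (-0.65, adjusted p = 0.00724) and camta1/2/3 (-1.36, adjusted p = 1.32e-06). For AT5G59670 no difference from another mutant passed, with -0.92 against camta1/2/3 (adjusted p = 0.0663).

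Of the 14 called falls, 2 were called between camta1/2 and camta1/3, both lower in camta1/2. Against camta2/3, 2 were called higher and 2 lower in camta1/2 (0.712% of all probe sets each way). Between camta1/2 and camta1/2/3, 4 were called higher in camta1/2 (7.06% of all) and 0 lower (8.47% of all). AT3G43270 was higher in camta1/2 than in camta2/3 by 0.94 (adjusted p = 0.0431) and than in camta1/2/3 by 1.65 (adjusted p = 0.000135), and AT1G06830 was higher in camta1/2 than in camta1/2/3 by 1.35 (adjusted p = 0.000136). AT3G25290, AT2G15630 and AT3G11000 lay near the lower end in both mutants, where a difference between them could not be measured.

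The WT arrays at 22 °C are shared by all the double mutants, so the agreement with other genotypes was read from comparisons that use none of the 6 arrays. The first was camta1/2/3 minus WT after 24 h at 4 °C. Of the 23 probe sets called higher in camta1/2, 20 were called higher there, against 10.5% of all probe sets, and 0 lower. Their median difference was 1.82, against 0 for all probe sets. Of the 14 called lower, 7 were called lower (10.6% of all), with a median of -0.27. The 7 include 245910_at, 250604_at and 247270_at. These were low in every camta1 or camta2 mutant, on the arrays at 4 °C too, so their falls repeat the pattern described above. Temperature differs between these comparisons as well as genotype. Replicate 2 of camta1/2/3 at 4 °C had an actin gap of 4.25, and without it the counts were 19 and 7.

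By gene, the rise in camta1/2/3 over WT at 4 °C was at least 4.13 for AT4G18250 (with WT at 3.75, 3.68 and 3.67), 3.92 for MSRB9 and 2.38 for BIK1. AT1G76960 was the named rise that did not pass there (0.51, adjusted p = 0.155). Among the falls, AT3G43270 was lower by a log2 difference of -2.63 and AT1G06830 by -1.49, whereas AT2G45750 and AT3G57220 did not pass. For AT3G25290, AT1G64450 and AT3G11000 a fall could hardly be seen at 4 °C, since WT itself was near the lowest level of these probe sets: AT3G11000 read 2.19 on each of the 6 arrays, AT3G25290 averaged 2.82 in camta1/2/3 and 2.78 in WT, and AT1G64450 averaged 3.54 in camta1/2/3 and 3.55 in WT. A longer ranking was made of the 100 probe sets with the smallest unadjusted p in each direction. Of the 100 top-ranked rises, 78 were called higher at 4 °C (10.5% of all probe sets) and 2 lower (10.6%), with a median difference of 1.80. Of the 100 top-ranked falls, 38 were called lower (10.6% of all) and 0 higher (10.5% of all), with a median of -0.21.

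**Figure D5:**
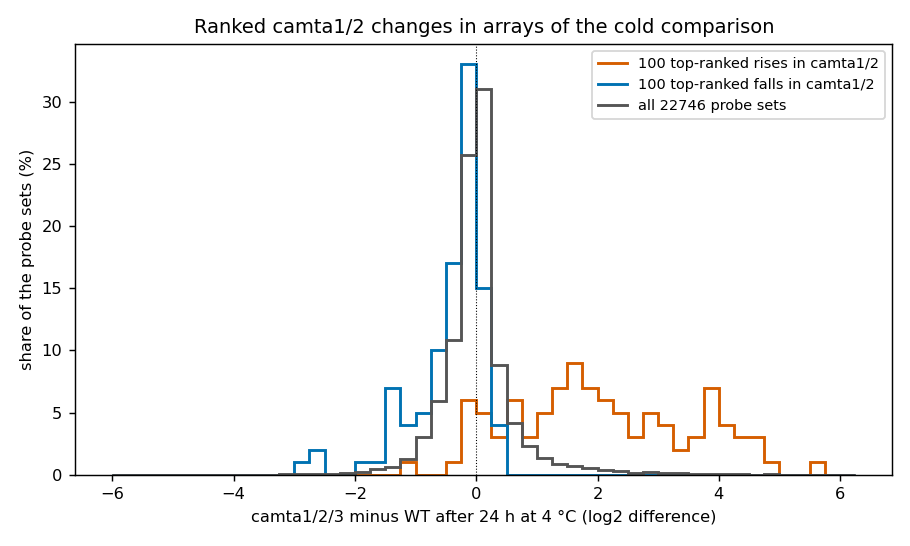
Share of probe sets (%, vertical axis) by the log2 difference of camta1/2/3 minus WT after 24 h at 4 °C (horizontal axis), for the 100 top-ranked rises of camta1/2 (orange), its 100 top-ranked falls (blue) and all 22746 probe sets (grey). The rises lie to the right with a median of 1.80, and the falls lie close to 0 with a median of -0.21.

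Ranked by size alone, most of the widest differences were not called. Of the 191 probe sets that were at least 2-fold higher in camta1/2, 18 were called at 22 °C (0.101% of all probe sets). In camta1/2/3 minus WT at 4 °C, 152 of the 191 were called higher (10.5% of all), with a median of 2.19. Of the 42 that were at least 2-fold lower, 18 were called lower there (10.6% of all) and 2 higher (10.5% of all). Over all 22746 probe sets, the differences of camta1/2 from WT correlated with those of camta1/2/3 from WT at 4 °C at a Pearson r of 0.47 and a Spearman rho of 0.29. In the further comparisons without shared arrays, r was 0.41 and rho 0.33 with camta1/2/3 minus camta1/3 at 22 °C, and r was 0.23 and rho 0.20 with camta1/2/3 minus camta2/3. These describe the table across probe sets, which are not independent. In camta1/2/3 minus camta1/3, 22 of the 23 called rises lay higher (10061 of all 22746 probe sets). The test, with standard errors from all 21 arrays, called 10 of them higher (4.43% of all). Of the 14 falls, 12 lay lower (10832 of all) and 6 were called lower (5.14%). In camta1/2/3 minus camta2/3, 21 of the rises lay higher (10447 of all) and 2 were called higher (1.01%). There 11 of the falls lay lower (10462 of all) and 3 were called lower (0.426%). The falls called lower include 247270_at and AT3G57220 in the first comparison, where CAMTA2 status differs. In the second, where CAMTA1 status differs, they include 245910_at and 250604_at. These calls go with the gene that differs, as described above. In the first comparison 245910_at was also called lower (-0.67, adjusted p = 0.0357 in limma), although CAMTA1 is mutated in both groups.

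The 5 largest named rises outside the calls and 2 immune genes further down are given here, as chosen after the values were seen. AT5G52760, which encodes a heavy-metal-associated domain protein, had 7.74, 8.35 and 6.90 in camta1/2, against 5.78, 5.07 and 4.62 in WT (log2 2.51 ± 0.49, adjusted p = 0.0573). AT5G18470 (2.40, adjusted p = 0.147), AT5G55450 (2.29, adjusted p = 0.0869) and AT1G13470 (2.19, adjusted p = 0.0631) did not pass either. The chitinase-family gene CHI (AT2G43570) had 7.53, 8.77 and 8.57 in camta1/2, against 8.0, 5.61 and 4.32 in WT (2.31, adjusted p = 0.208). The immune transcription factor gene WRKY53 had 5.86, 6.83 and 5.03 in camta1/2, against 5.66, 3.83 and 2.76 in WT (1.82, adjusted p = 0.439). In CHI and WRKY53 the groups overlapped, and in AT5G52760, CHI and WRKY53 WT replicate 1 was the highest WT array. Between the 5 and WRKY53 in size came AT3G48640, AT3G60420, AT4G00700 and AT1G35710, with differences of 1.94 to 2.05, none of which passed. The subtilase gene SBT3.3, which is known for priming of immunity, had 4.17, 5.95 and 5.62 in camta1/2, against 4.97, 3.10 and 3.01 in WT (adjusted p = 0.455), with the same high WT array.

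Gene groups gave few calls, as did the table as a whole, where 0.163% of all probe sets were called. Of 16 lists of loci with 191 entries, 38 entries had a probe set named here, and 1 of the 38 was called: BIK1, which belongs to the genes of pattern-triggered immunity, with 6 measured. The other 5 of these did not pass, and the median difference over the 6 was 0.05. The widest of them was WRKY53, at 5.91 in camta1/2 and 4.08 in WT (adjusted p = 0.439), with WRKY22 at 2.85 in both genotypes and EFR, a receptor gene for bacterial elongation factor, at 3.22 in camta1/2 and 3.13 in WT. Of the salicylic acid list 3 were measured, 0 passed and all 3 differences were positive, with a median of 0.35 against -0.0033 for all probe sets. AT5G52810, whose product acts in the synthesis of pipecolic acid, an immune signal, averaged 7.52 in camta1/2 and 6.47 in WT (adjusted p = 0.0605). SAG101, a partner of EDS1, averaged 4.94 in camta1/2 and 4.59 in WT.

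Of 5 genes of flavonoid and anthocyanin synthesis 0 passed, and all 5 differences were negative, with a median of -0.90. The anthocyanin glycosyltransferase gene UF3GT had 5.40, 5.82 and 5.21 in camta1/2, against 6.38, 7.53 and 6.75 in WT (adjusted p = 0.176), groups that did not overlap. DFR, which encodes dihydroflavonol reductase, averaged 6.55 in camta1/2 and 7.45 in WT (adjusted p = 0.49), and AT4G14090, a glycosyltransferase gene of the same pathway, averaged 4.15 in camta1/2 and 5.51 in WT (adjusted p = 0.443). The median of the list was -1.36 in camta1/3, -2.15 in camta2/3 and -2.20 in camta1/2/3, each against the same WT arrays.

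Of 7 genes of the cold-regulated COR and CBF list 0 passed at 22 °C, with a median difference of -0.07. COR15A, a chloroplast protein gene of cold acclimation, had 9.03, 7.17 and 7.76 in camta1/2, against 9.81, 8.85 and 8.33 in WT, a difference of -1.01 ± 0.56 (SE, adjusted p = 0.734) with overlapping groups. Its difference from WT was -3.92 in camta1/2/3 (adjusted p = 0.000119), and camta1/2/3 minus WT at 4 °C was 0.23. COR15B averaged 9.21 in camta1/2 and 9.20 in WT. The zinc finger gene STZ averaged 6.40 in camta1/2 and 5.43 in WT (adjusted p = 0.565).

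The CAMTA relatives that were measured did not pass: AT1G67310 averaged 6.28 in camta1/2 and 6.38 in WT, AT3G16940 averaged 6.40 in camta1/2 and 6.53 in WT, and AT4G16150 averaged 6.06 in camta1/2 and 5.95 in WT. Of the defence genes of the jasmonate and ethylene response 3 were measured and 0 passed, with the defensin gene PDF1.2 at 6.68 in camta1/2 and 6.09 in WT. None of 7 WRKY factors, 24 cytochrome P450 genes, 12 glutathione S-transferase genes, 43 UDP-glycosyltransferase genes or 28 expansin and xyloglucan hydrolase genes was called in limma. Nor was any of 487 genes in 36 families formed by symbol. With 0.163% of all probe sets called, the absence of calls does not set groups of these sizes apart. Of 3 glucosinolate genes 0 passed, with differences between -0.20 and -0.16, and GI, the 1 clock gene measured, averaged 8.81 in camta1/2 and 8.63 in WT.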

How the data were processed

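Total RNA from 21 samples was amplified, labelled with biotin and hybridized to arrays, per the labels' protocols. Per the submitters' processing notes, the deposited log2 values come from GCRMA, with limma named beside it; their versions are not given in the sources used. Of 22810 probe sets 64 controls were left out and none was filtered for a low level. The probe table lists 14016 probe sets, 13513 with 1 gene and 503 with several. The other 8730 were tested without a name, and 13436 single genes matched RefSeq.

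The deposited values were fitted with limma 3.58.1 (R 4.3.3, lmFit and eBayes) as 7 group means over 21 arrays, with 14 residual and 0.954 prior degrees of freedom. Tests were two-sided and p-values were adjusted by Benjamini-Hochberg over 22746 probe sets in each comparison. The mean of 3 arrays limits the precision of every value. No 2 arrays held the same values. Each p-value sets a difference between group means against the spread between biological replicates as labelled, pooled over the 7 groups. The code was tested on simulated data.

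Named genes were the 12 largest rises and falls among called probe sets with 1 gene and no overlap between groups, filled up to 12 by unadjusted p where fewer were called. Of each list, up to 4 called members or 2 with the highest level were added, with the CAMTA family and COR15A, and the text gives a part of these. The comparison, gene lists and this rule were chosen with earlier results of these data known; other genes were named after their values were seen. A list here is described by counts and its median, without a test. Of 33 lists 8 had no measured member. No sequence or coordinate is given, since no genome was used here. Alternatives were other normalizations, filters, variance models, array weights, a replicate block, the actin gap as a covariate, fewer arrays in the fit, stricter thresholds, a single probe set for each gene, and fits without each array.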

Additional observations from a re-analysis of the deposited data

How the results depend on the processing

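Calls between camta1/2 and WT numbered 37. They were 68 after quantile normalization (all 37 kept), 56 after median centring (35 kept), 141 with a mean level of at least 4 (127 higher and 14 lower), 144 with at least 4 on 3 arrays (126 and 18) and 128 with array weights. They were 20 with the 15 arrays at 22 °C and 0 with the 6 arrays of both groups. At least a 2-fold change left 23, an adjusted p under 0.01 left 4, and 1 probe set per gene gave 13. Leaving out 1 array gave 7 to 279. Calls between camta1/2 and camta1/3 numbered 2. They were 1 with median centring, with either filter, with a replicate block, with 1 probe set per gene or at 2-fold. They were 0 in limma with the actin covariate (936 at an unadjusted p under 0.05), with the 15 arrays (1050), with the 6 arrays (880) or at an adjusted p under 0.01, and 0 to 10 when 1 array was left out. Calls between camta1/2 and camta2/3 numbered 324. They were 550 and 567 with the filters, 1138 with array weights, 200 with the actin covariate and 44 with the 6 arrays. At 2-fold they were 175, at an adjusted p under 0.01 they were 80, with 1 probe set per gene 133, and without 1 array 127 to 370. Calls between camta1/2 and camta1/2/3 numbered 3533. They were 2443 with the actin covariate and 1653 with the 6 arrays. At 2-fold they were 1299, at an adjusted p under 0.01 they were 1876, with 1 probe set per gene 1713, and without 1 array 2534 to 3147. A stricter threshold lowers a count by construction; the cause of the other shifts was not tested. In the comparison at 4 °C, the counts without replicate 2 of camta1/2/3, an alternative chosen after seeing the data, were 19 of 23 and 7 of 14.

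The main fit took no account of the replicate numbers. Residuals of camta1/2 and WT arrays with the same number correlated at only -0.04, 0.03 and 0.13, but over the series the numbers carried a shared pattern. A replicate block gave 26 calls between camta1/2 and WT, 22 of them among the 37. The block ended the calls of AT5G59670, AT4G18250, MSRB9, AT2G15042, AT1G76960, AT2G32160, AT1G13750, AT2G45750, AT1G64450 and AT2G15630. For 18 of 21 arrays, of the 3 numbers, the same number gave the highest mean correlation of residuals with arrays of the other groups. The main fit leaves this pattern within the spread between replicates. For 66 genes followed through the alternatives, 620 of 696 values kept direction and side of the threshold, 56 no longer passed, 20 newly passed and 0 reversed. Of 396 values with 1 array left out 323 kept both, 63 no longer passed, 10 newly passed and 0 reversed. AT1G49050, 245910_at, 247270_at and 250604_at lost their calls in none of these fits but that of the 6 arrays. With 3 arrays a group and a median standard error of 0.16, changes well under 2-fold could pass only for genes of little spread, and genes not called here are not shown to be unchanged.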

Other observations

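Among the 20 named genes with the largest falls by size, some had camta1/2 arrays that all lay below the WT arrays but far apart from each other. None of those given here was called in limma. Groups without overlap and with camta1/2 lower made up 5.17% of all probe sets. Of the 42 probe sets at least 2-fold lower, 26 had no overlap. The plastid gene petD, which encodes a subunit of the cytochrome b6f complex, had 6.59, 4.99 and 7.25 in camta1/2, against 7.54, 7.43 and 7.87 in WT. AT4G04010 had 5.26, 3.99 and 4.84 in camta1/2, against 5.73, 6.0 and 5.79 in WT, AT3G32900 had 4.57, 2.95 and 4.57 in camta1/2, against 4.82, 5.60 and 4.77 in WT, and AT2G06430 had 5.27, 4.16 and 5.08 in camta1/2, against 5.88, 5.86 and 5.86 in WT. THI2.2 had 7.16, 6.03 and 7.16 in camta1/2, against 7.55, 7.64 and 8.48 in WT. Replicate 2 was the lowest camta1/2 array in each of these genes. The probe sets of AT4G04010, AT3G32900 and AT2G06430 all carry the suffix _x_at and had similar patterns. In camta1/2/3 at 4 °C they read 7.88, 8.44 and 5.16, then 6.70, 7.26 and 4.45, then 7.68, 8.15 and 4.74. They may not be separate observations. In 2 others WT replicate 1 stood far above the other WT arrays: AT3G02480 had 2.67, 3.10 and 3.10 in camta1/2, against 5.93, 3.43 and 3.10 in WT, and AT1G15010 had 2.98, 2.87 and 2.89 in camta1/2, against 6.28, 3.17 and 2.61 in WT.

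The glutathione transferase gene GSTU20 had 10.05, 9.49 and 8.95 in camta1/2, against 10.88, 10.63 and 10.38 in WT, groups that did not overlap, and did not pass (adjusted p = 0.241). The ion channel gene GLR2.7, of the glutamate receptor-like family, had a difference of 1.25 and an adjusted p = 0.0596.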
